A study of Brassica napus with 6 samples.

Results

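The untreated root of oilseed rape (Brassica napus cv. Nourin No.16) was described through the 200 brightest named genes on its 3 control arrays, out of 13356 named genes measured. These genes were chosen by their own mean signal over the 3 arrays, so their signals are a description and were not tested. For each gene the probe with the highest mean was taken, and array control probes were left out. The plants were grown hydroponically, with 4 seedlings in a container, and roots were harvested at 4 weeks. Control plants were left untreated for the 4 days in which plants of the other group received reduced glutathione (GSH, a thiol tripeptide) on their leaves, daily and at 100 mM, with 50 µL painted onto each of 3 leaves. The 3 arrays of that group enter here only as an alternative set of root arrays. The labels call the 3 arrays of a group biological replicates and do not say how many plants were pooled for each. Because root tissue was sampled in bulk, a lower share of a cell type and less RNA per cell cannot be told apart.

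Rape RNA was read with the Arabidopsis ATH1 array, whose probes were designed on the genes of a related species. All gene names and roles given here are therefore those of the Arabidopsis gene that a probe was designed on. A probe's brightness depends on its own sequence and on how well the rape transcript matches it, as well as on how much transcript is present. The order of the genes is for this reason an order of probe signals and not of transcript amounts. Of 22746 probes, 13513 were paired with 1 gene, 503 with several, and 8730 were unnamed here. Only 70 of the 200 brightest probes on the array were paired with 1 gene, and 321 probes without a single gene name were at least as bright as the gene at rank 200. Near-identical members of a family can share a probe, and signals of such members are uncertain.

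Roots grow by division and elongation near the tip, take up water and ions further back, and depend on sugar sent from the leaves. Growing plant tissue spends much of its messenger RNA on ribosomal proteins, on respiration that supplies ATP, and on the secretory pathway that builds membranes and wall. Root plastids do not photosynthesise but carry out amino acid and fatty acid synthesis and keep their own small genome.

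Most named genes gave a signal in a narrow range, and a small number stood far above it. On the deposited log2 scale the gene signals had a median of 5.82, with quartiles at 5.65 and 6.02, while the brightest gene reached 10.60. The upper decile began at 6.29 and the top 1 percent at 7.43. Of the 200 brightest genes, 9 reached 9 or more and 53 reached 8 or more. The 27 array probes for transcripts of the bacterium Bacillus, which a plant does not make, lay between 5.32 and 5.94, and 33.0% of the named genes were above the highest of them. The labels do not say whether such transcripts were added to the RNA. The 6 probes for the hybridisation control bioB lay between 7.50 and 8.15, and 81 of the 200 genes were dimmer than all of these. All 200 genes were above the Bacillus probes. Signals within the range of the Bacillus probes are given as values, and their order is not read.

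**Figure D1:**
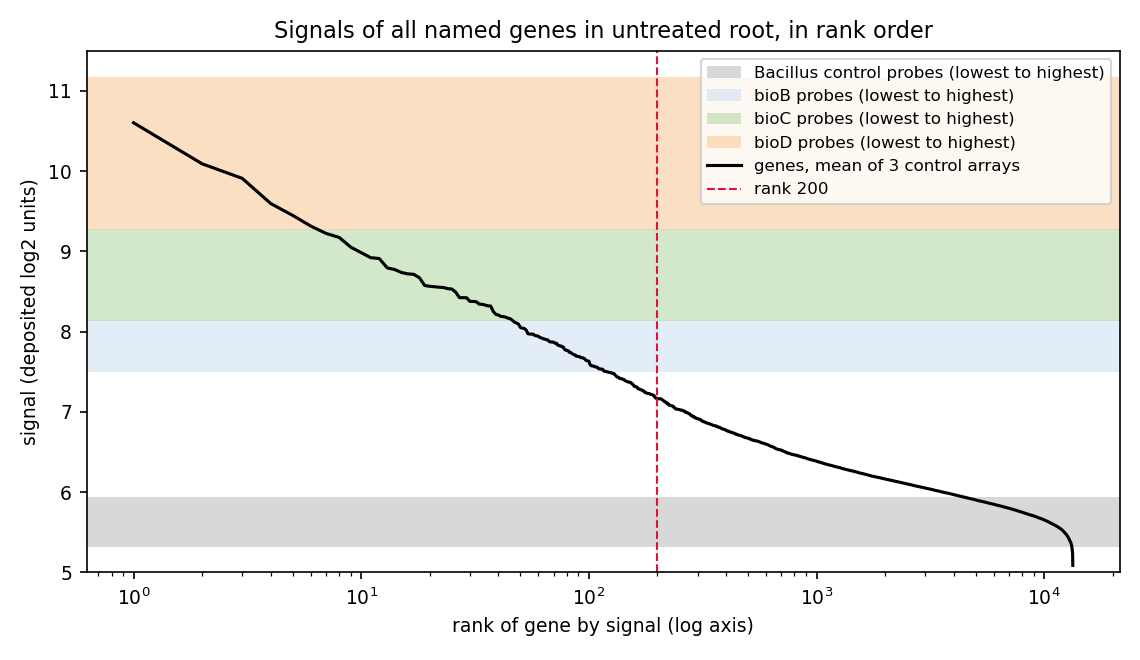
Signal in deposited log2 units (vertical axis) against the rank of each of 13356 named genes (horizontal log axis), each the mean of 3 control arrays, with bands from the lowest to the highest probe of the array controls. The curve falls from 10.60 at rank 1 through 7.16 at rank 200, marked by the dashed line, and most genes lie within the Bacillus band of 5.32 to 5.94 or just above it.

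The arrays' own control probes for Arabidopsis transcripts differed along a transcript. The 3' probe for glyceraldehyde-3-phosphate dehydrogenase read 5.95, the middle probe 9.18 and the 5' probe 8.01. For actin the 3' probe read 7.54, the middle probe 6.24 and the 5' probe 6.50. The ubiquitin probes read 9.55, 7.65 and 9.09 in the same order. Probes of the same transcript thus lay up to several units apart with no common order from end to end.

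The 3 arrays were almost the same for every gene. For all 200 genes, and for all 13356, the range over the arrays was under 0.005, so that a signal given below once, to 2 decimals, stands for each of the 3 arrays within that range. The range of a gene among the 200 had a median of 10.6 millionths of a log2 unit, against 1.07 millionths over all genes. The largest SD among the 200 was 465 millionths (n = 3). The steps of processing that could bear on such small differences are not stated in the labels. Steps between neighbouring ranks of the 200 were far wider, with a median of 4732 millionths. The same rank on all 3 arrays was found for 198 of the 200 genes, and arrays this close could give little else. Their range was not taken as the variation between plants, and how far the order would vary between plants was not tested. Among the 200, the widest range belonged to PMM, phosphomannomutase of mannose metabolism. It read 7.320058, 7.319682 and 7.320607 on arrays 1, 2 and 3. The endoplasmic reticulum co-chaperone ATERDJ3B, with a range of 371 millionths, came next. AT1G07040 followed with 359, AT4G30450 with 357 and the metallothionein MT1C with 340 millionths. Control array 1 was the highest of the 3 for 82 of the 200 genes and for 60 of 131 ribosomal protein genes, compared with 3916 of all 13356 genes.

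Genes for cytosolic ribosomal proteins made up 55 of the 200 brightest genes, or 27.5%, and 17 of the brightest 25. The 13356 named genes held 131 such genes in all, and 55 of these 131 were among the 200. The 200 genes are 1.50% of all named genes by construction. This is the level to set beside the part of a class that is found among them, such as 55 of 131, and not beside the 27.5%. The next groups were nuclear genes of mitochondrial metabolism with 19 genes, the secretory pathway with 12, plastid-encoded genes with 11 and cytosolic carbon metabolism with 9. The mitochondrial, secretory and carbon groups were formed only within the 200, so no part of a whole class can be given for them. For 47 genes no role was assigned here. Roles were assigned after the values were seen, and genes beyond rank 25 that are named for a role were picked as examples in the same way.

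**Figure D2:**
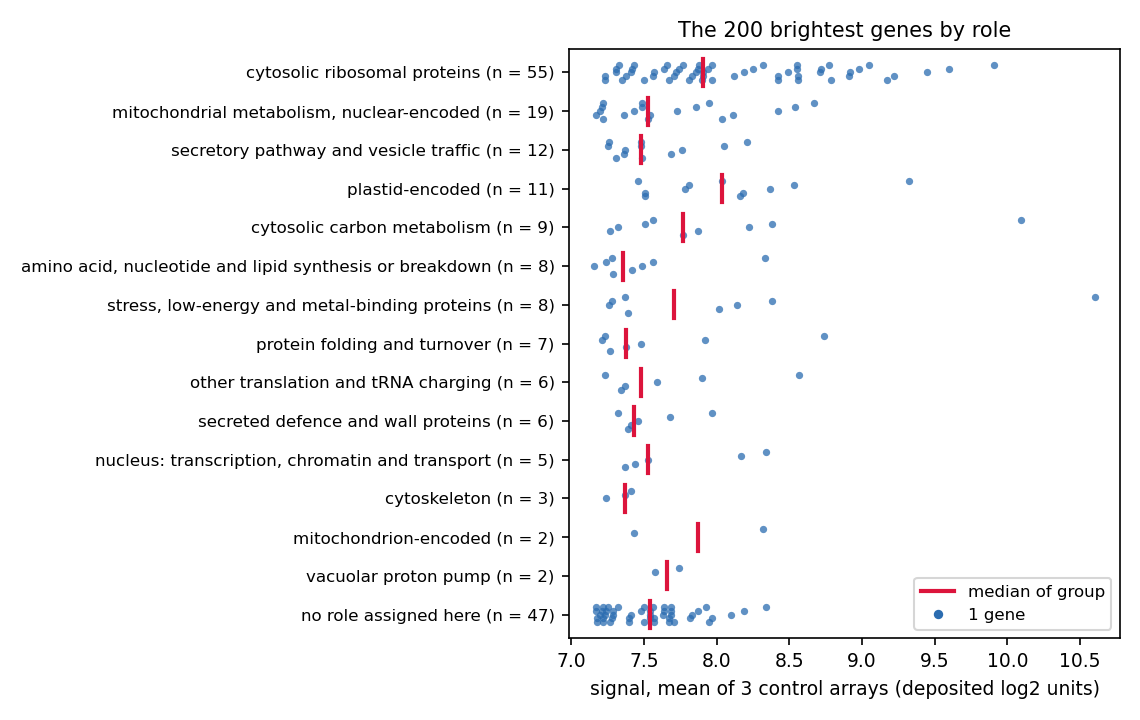
Signal of each of the 200 brightest genes (horizontal axis, deposited log2 units, mean of 3 control arrays) by role; points are genes and red bars the group medians. The 55 ribosomal protein genes spread from 7.23 to 9.91, and the brightest gene of all, at 10.60, is in the group of stress, low-energy and metal-binding proteins.

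The brightest named gene was AT4G27450, which read 10.60206, 10.60208 and 10.60204 on the 3 arrays. It encodes a protein of the aluminium-induced family with YGL and LRDR motifs, a family whose Arabidopsis members include genes induced by darkness and sugar starvation. A further pair of family members was also among the 200, AT3G15450 at 8.02 and AILP1 at 7.37. The same role group held RD2, a gene named for its response to desiccation, at 8.38 with a range of 272 millionths. The metallothionein MT1C, a small cysteine-rich metal-binding protein and the only metallothionein measured by a probe of its own, stood at 8.14 and rank 46. The ranges of AT4G27450, AT3G15450 and AILP1 over the arrays were 46.2, 44.1 and 15.8 millionths, all above the median of the 200 and well below those of RD2 and MT1C.

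Carbon metabolism of the cytosol was bright in the genes that were measured, which were 10 of the 39 listed. TPI, triose-phosphate isomerase of glycolysis, was second at 10.09 and differed by 4.18 millionths over the arrays. All 10 measured genes of glycolysis, sucrose cleavage and fermentation were in the upper quartile of gene signals, which holds 25% of all genes, and their median percentile was 95.4. PDC2, a pyruvate decarboxylase that opens ethanol fermentation, read 7.56. The glycolytic dehydrogenase GAPC2 read 7.51, and AT4G17260, a lactate dehydrogenase, read 7.27. The members at the dim end were the enolase ENOC at 6.18 and the pyruvate kinases AT5G08570 at 6.15 and AT4G26390 at 6.07. Genes that feed lipid and amino acid synthesis were also among the 200, with the isocitrate dehydrogenase cICDH at 8.38 and the ATP-citrate lyase subunit ACLA-2 at 8.22.

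The mitochondrial respiratory machinery encoded in the nucleus was bright as a group. Of 26 listed genes of the tricarboxylic acid cycle, cytochrome c and mitochondrial carriers 8 were measured. All 8 were in the upper quartile, with a median signal of 6.97, and 3 of them were among the 200. IDH-V, a subunit of NAD-dependent isocitrate dehydrogenase, read 8.67. CYTC-1, which carries electrons to the terminal oxidase, read 8.11, and its paralog CYTC-2 read 6.46. Of 38 nuclear genes for respiratory chain complexes, a list drawn up after the values were seen, 32 were in the upper quartile and 10 among the 200. The brightest was AT2G47380, a small subunit of cytochrome c oxidase, at 8.42. AT3G08610 of complex I read 7.86. AT4G02580, also of complex I, and AT4G37830, again of cytochrome c oxidase, read 7.54 and 7.53. At the other end AT5G47890 and AT2G19680 read 5.56 and 5.53, within the range of the Bacillus probes. AT5G19760, a carrier of di- and tricarboxylates across the inner membrane, was at rank 24 with 8.54.

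Ribosomal protein genes of both subunits reached similar levels. The large subunit had 70 measured genes with a median of 6.92, of which 57 were in the upper quartile, 29 among the 200 and 4 in the lower quartile, which also holds 25% of all genes. The small subunit had 47 genes with a median of 6.86, of which 42 were in the upper quartile, 20 among the 200 and 1 in the lower quartile. The 14 genes of the acidic stalk, the flexible arm that binds translation factors, had a median of 6.77, with 11 in the upper quartile and 6 among the 200. AT3G60245, for the protein RPL37a, was the third gene overall at 9.91. AT1G52300, for RPL37, followed at 9.60 and AT3G02080, for RPS19, at 9.45. These were followed by AT1G67430 of RPL17 at 9.22, AT1G77940 of RPL30 at 9.17 and AT3G60770 of RPS13 at 9.05. The brightest stalk gene was AT4G00810, a P1 protein, at 8.25.

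Each ribosomal protein is encoded by several genes in Arabidopsis, and their probes gave different signals. Among 37 proteins with at least 2 measured genes, grouped after the values were seen, 29 had every measured gene above the highest Bacillus probe. In these the probe of the brightest gene read a median of 1.51 log2 units above that of the dimmest, and 1 unit or more in 24. The differences are between probes of different sequence and are not differences in transcript amount. Of all 37 proteins, 29 had a gene among the 200 beside one outside it, and 6 had every measured gene among the 200. In 8 of the 37 proteins a gene above the Bacillus probes stood beside one within their range, so that no size can be given. For RPL37a AT3G10950 read 5.53 beside the 9.91 of AT3G60245, and for RPL37 AT1G15250 read 5.71 beside the 9.60 of AT1G52300. Among proteins with every gene above the Bacillus probes, the genes of RPS3a lay 0.29 apart, with AT4G34670 at 8.12 and AT3G04840 at 7.83. Further ribosomal protein genes within the Bacillus range were AT2G39590 of the small subunit at 5.42 and AT3G55170 of RPL35 at 5.43. A low transcript level and a probe that matches the rape transcript poorly cannot be told apart.

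**Figure D3:**
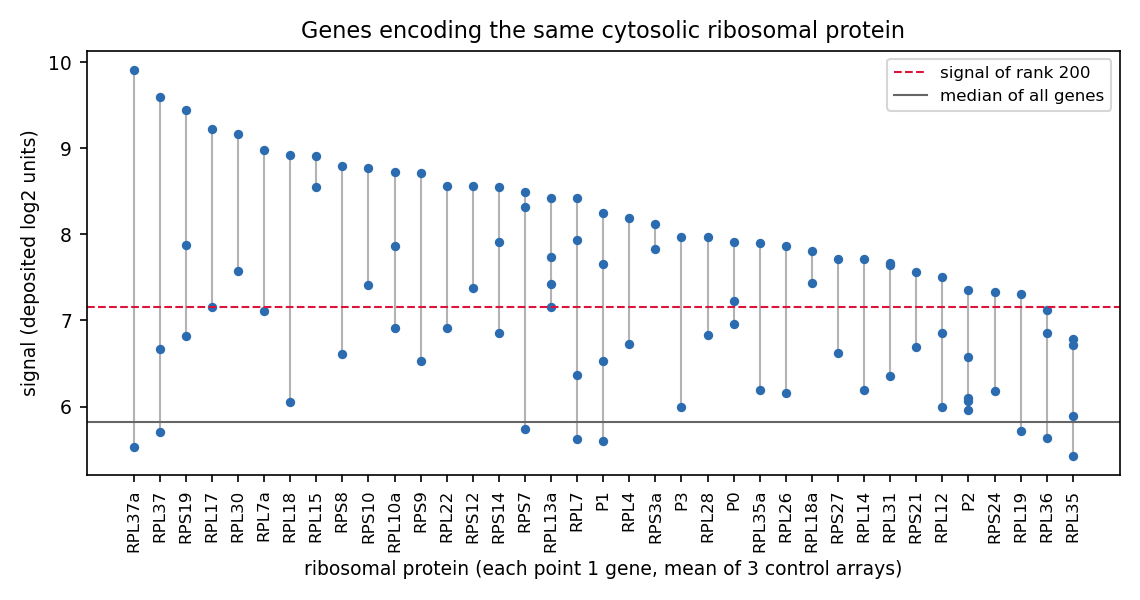
Signals of the measured genes (points, mean of 3 control arrays, deposited log2 units) that encode the same ribosomal protein, for 37 proteins ordered by their brightest gene; grey lines join the members. The genes of RPS3a lie 0.29 units apart, points at 5.94 or less are within the range of the Bacillus probes, and 35 of the proteins have at least 1 gene among the 200.

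Of 35 listed translation factors only 8 had a probe of their own. Of these, 4 were in the upper quartile, and AT5G19510, a subunit of the exchange factor of elongation factor 1, was among the 200 at 7.90. Listed genes that share a probe with others have no value here, and the brightest such shared probe of the array read 11.37. The initiation helicase EIF4A-2 read 7.15, just outside the 200 at rank 210, and its relative AT1G72730 read 5.59. Among 13 aminoacyl-tRNA synthetases, which charge tRNAs with amino acids and were listed after the values were seen, 7 were in the upper quartile and 3 among the 200. AT5G26710, which charges glutamate, was at rank 19 with 8.57. AT3G62120 for proline read 7.59 and AT4G26870 for aspartate 7.34, whereas AT4G13780 read 5.73.

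Chaperones, the proteasome and ubiquitin-conjugating enzymes were bright in most of their measured members. Of 10 constitutive chaperones 9 were in the upper quartile, led by AT1G24510, the epsilon subunit of the CCT chaperonin that folds actin and tubulin, at 8.74 on each array. Hsp70-2 followed at 7.27, and the CCT subunit AT5G16070 read 6.86. Yet AT5G26360, a subunit of the same complex, read 5.88, near the median of all genes. Of 52 listed proteasome genes 9 were measured, with 8 in the upper quartile. They ran from AT1G79210 of the core particle at 7.38 down to AT1G04810 of the regulatory particle at 5.91. Ubiquitin-conjugating enzymes had 9 of 12 genes in the upper quartile, with UBC28 at 7.92. Of 8 autophagy genes 4 were in the upper quartile, and ATG8F, a protein that coats autophagosomes, was the brightest at 7.48. The lists of ubiquitin-conjugating enzymes and autophagy genes were drawn up after the values were seen. For the secretory pathway no list was counted, and examples from the 200 were AT2G34250, a subunit of the protein channel of the endoplasmic reticulum, at 8.21, and AT1G09330, which acts in secretion from the trans-Golgi, at 7.76.

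Proton pumps were measured through 9 of 32 listed genes. Of the 9, 8 were in the upper quartile, and the median of the 9 was 6.59. The vacuolar pump acidifies the vacuole and drives storage of ions there. Its peripheral subunits AT3G42050 and AT4G02620 were among the 200 at 7.74 and 7.58. The membrane subunit genes VHA-A1, VHA-A2 and VHA-A3 lay close together at 6.61, 6.53 and 6.59, and AT4G26710 read 5.86. Sulfate assimilation, which supplies cysteine and glutathione, was measured through 3 of 17 listed genes of sulfate uptake and assimilation. All 3 were in the upper quartile and none among the 200. SIR, the sulfite reductase, read 6.99. The ATP sulfurylases APS3 and APS4 read 6.76 and 6.70.

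The cytoskeleton and chromatin classes had most of their measured genes in the upper quartile and few among the 200. Of 9 tubulin and actin genes 6 were in the upper quartile. TUB7, a beta-tubulin, read 7.41, and TUB9 at 7.16 was the first gene outside the 200. The actins ACT11 and ACT12 read 5.76 and 5.75, within the range of the Bacillus probes. Of 38 listed histone genes 9 were measured, with 6 in the upper quartile and 2 in the lower. The H2B gene HTB1 was the brightest at 6.71, and AT2G28720 read 5.39, within the range of the Bacillus probes.

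The limit of the 200 fell in a dense stretch of signals. AT1G22410, an enzyme at the entry of aromatic amino acid synthesis, was the last included, at 7.165 on the scale, and TUB9 the first left out, also at 7.165. Inside the limit were AT4G31130 at 7.177, AT1G24050 at 7.170, AT4G29480 of the mitochondrial ATP synthase at 7.168 and EPC1 at 7.167. Outside it were AT5G21090 at 7.165, AT4G38810 at 7.164, AT4G31170 at 7.164 and AT1G27400, a second RPL17 gene, at 7.164. The signals at ranks 196 and 205 were 12951 millionths of a log2 unit apart and those at ranks 200 and 201 were 89.4 millionths apart. The widest range over the arrays among these genes was 52.9 millionths, which was not taken as the uncertainty of a rank.

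Class III peroxidases, secreted enzymes that act on phenolics and wall polymers, were close to the general run of genes. Of 55 measured, 12 were in the upper quartile, 9 in the lower and 1 among the 200, and the median percentile was 58.2. PRXR1 was the brightest at 7.39 with a range of 74.2 millionths. AT4G26010 read 6.83 and AT4G33420 read 6.65, and AT5G47000 read 5.47. Expansins and xyloglucan endotransglucosylases, which loosen and rejoin wall polymers in growing cells, had 3 of 12 genes in the upper quartile. EXPA15 led at 6.55, while XTH19, XTH20 and XTH18 read 5.67, 5.67 and 5.66. HCT, the only lignin pathway gene measured, read 6.61.

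Defence genes were found both among the 200 and within the range of the Bacillus probes. Among the 200, 6 genes encode secreted defence or wall proteins. Examples were AT4G33720 of the pathogenesis-related 1 family at 7.97 and the chitinases AT2G43610 at 7.68 and AT4G01700 at 7.41. This group was formed only within the 200, so no part of a whole class can be given for it. Of 8 defensin, thionin and pathogenesis-related genes 4 were in the upper quartile and 3 in the lower. LCR68 read 6.96, LCR69 6.23 and the thionin THI2.2 6.21. The defensin PDF1.2b read 6.14, whereas the jasmonate-induced defensin PDF1.2 read 5.41. LCR67 at 5.45, THI2.1 at 5.55 and PDF1.2 lay within the range of the Bacillus probes. Glucosinolates are the sulfur-rich defence compounds of this plant family. Of 38 listed genes of their synthesis and transport 5 were measured, with a median of 5.81. AT2G31790, a glucosyltransferase, read 6.12 and UGT74B1, an enzyme for the same step, 5.83. The transporters GTR2 and GTR1 read 5.81 and 5.78, and BCAT4, which starts side-chain elongation, read 5.71. PYK10, the root beta-glucosidase of ER bodies, read 6.13, and the ER body protein NAI2 read 5.87. JAL23 and JAL22, lectins that associate with PYK10 in Arabidopsis, each read 5.61. The flavonoid genes UGT78D2, DFR and BAN read 6.12, 6.02 and 5.77.

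Families found by their shared symbol were also listed after the values were seen. Of those given here, only the prenylated Rab acceptors had a median above the highest Bacillus probe. The other medians lay within the Bacillus range, as did the median and lower quartile of all genes. The order of these medians and the counts in the lower quartile are therefore given as values and not read. The 9 prenylated Rab acceptors, small membrane proteins of vesicle traffic, had a median of 6.15. The 14 bZIP regulators had a median of 5.93, the 14 SWEET sugar transporters 5.91, the 15 tetraspanins 5.89 and the 22 trichome birefringence-like genes 5.87. The 47 UDP glycosyltransferases had a median of 5.84 and the 29 serine carboxypeptidase-like genes 5.78. The 11 RALF-like peptides were also at 5.78, the 11 tau-class glutathione transferases at 5.79 and the 15 IQ-domain proteins at 5.76. Cytochromes P450, with 26 genes, had a median of 5.68 and 12 genes in the lower quartile. The 20 beta-glucosidases had a median of 5.65 with 11 in the lower quartile, although BGLU15 reached 6.71. Of 40 MADS-box genes, regulators best known from flowers, 15 were in the lower quartile, and the brightest were AGL19 at 6.39 and AGL79 at 6.38. The 10 NET genes, for actin-binding membrane proteins, had a median of 5.54, and none of them was above the highest Bacillus probe. The brightest members of their families were TET8, a tetraspanin of extracellular vesicles, at 7.69, the stress regulator BZIP60 at 6.90, and RALFL33, a growth-regulating peptide, at 6.84.

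**Figure D4:**
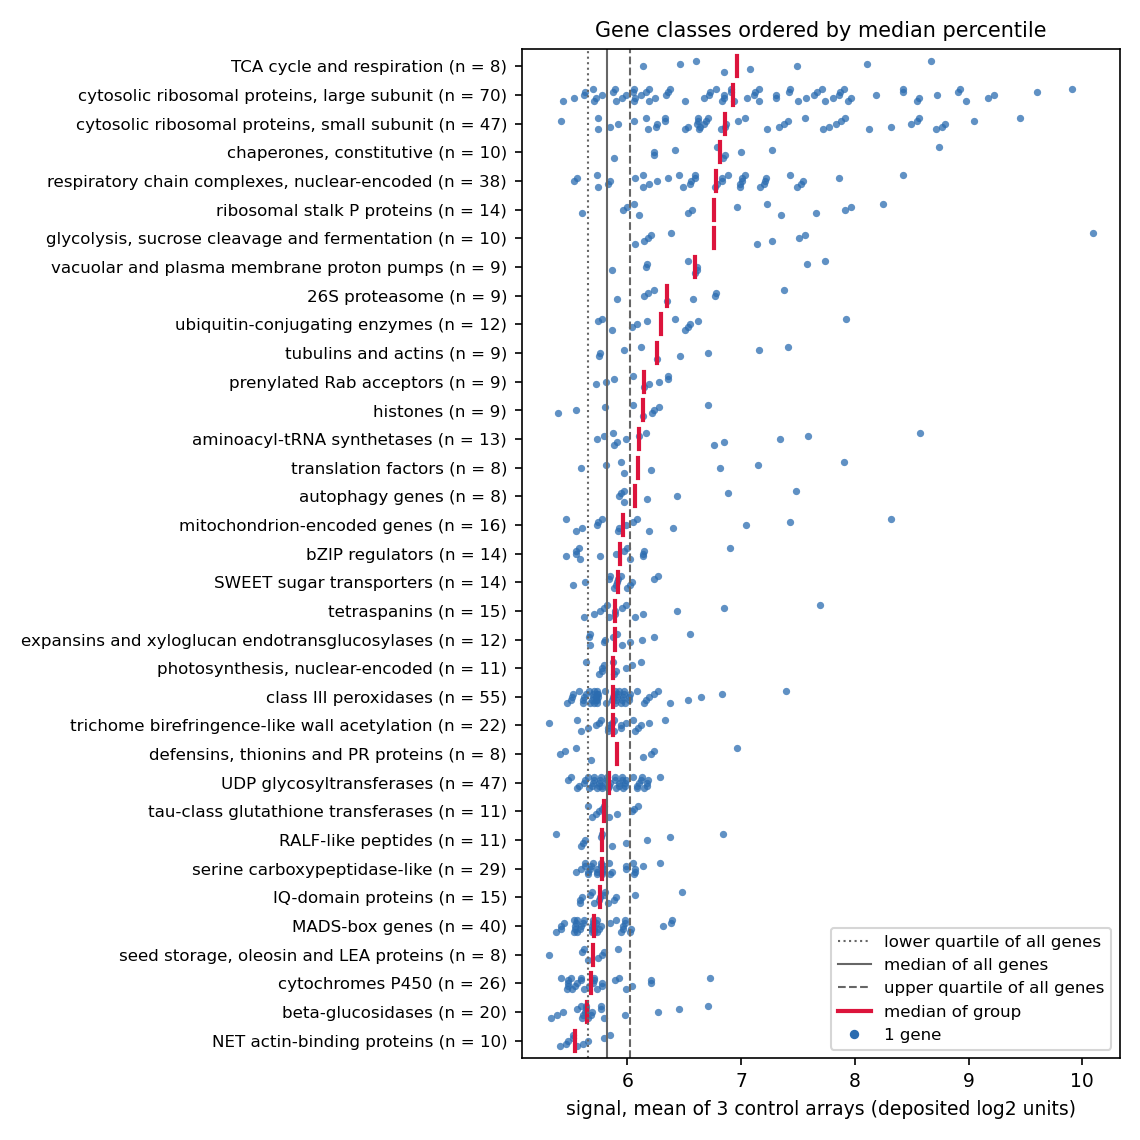
Signals of the measured genes (points, mean of 3 control arrays, deposited log2 units) of each class with at least 8 measured genes, ordered by median percentile; red bars are class medians and vertical lines the quartiles and median of all genes. Classes of respiration, ribosomes, chaperones and glycolysis have medians from 6.76 to 6.97, and none of the 10 NET genes lies above the highest Bacillus probe at 5.94.

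Lists of root and other organ markers were looked up to check the label of the tissue, but few markers had a probe of their own. The root hair expansins EXPA7 and EXPA18 read 6.13 and 5.95, above the highest Bacillus probe at 5.94 though not among the bright genes. The endodermal receptor GSO1, which surveys the Casparian strip, read 5.83, within the range of the Bacillus probes. Markers of non-hair epidermis, suberin, xylem, phloem, root cap and dividing cells were not analysed here. Only 3 root marker genes thus had a value, none of them among the 200. AT5G45880, a gene known from anthers, read 6.04, between EXPA18 and EXPA7. These values cannot check the label of the tissue.

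Lists of genes known from other organs, and of heat-induced chaperones, had medians within the Bacillus range. Differences between these lists are therefore not read. Of 23 listed seed genes 8 were measured. None of the 8 was in the upper quartile and 4 were in the lower, and none was above the highest Bacillus probe. Among them PAP85 read 5.92 and M17, a late embryogenesis abundant protein, 5.31. The 3 measured anther genes, of 28 listed, had a median of 5.84, also close to that of all genes. The brightest was AT5G45880 at 6.04, and AMS, a regulator of the tapetum, read 5.84. Of the 3 heat-induced chaperones none was in the upper quartile, with AT1G53540 at 5.91. Of 59 listed nuclear genes of photosynthesis 11 were measured. These had 2 genes in the upper quartile, 1 in the lower and a median of 5.87, close to that of all genes. The brightest was PSAE-1 of photosystem I at 6.12, followed by the Rubisco activase RCA at 6.04, and PRK of the Calvin cycle read 5.64.

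Genes of the plastid genome, listed after the values were seen, covered most of the scale. Of 69 measured genes 40 were in the upper quartile, 7 in the lower and 11 among the 200, with a median of 6.24. The adjacent genes atpE and atpB, for subunits of the plastid ATP synthase, were the brightest of their complex at 9.32 and 8.37. Of the others in the complex atpH read 6.56, and atpA, atpF and atpI read 5.84, 5.73 and 5.57, within the range of the Bacillus probes. The protease subunit clpP read 8.53 and accD, a subunit of the carboxylase that starts fatty acid synthesis, read 8.18. The plastid ribosomal protein gene rps3 read 8.16, rpl32 7.81 and the RNA polymerase gene rpoA 7.51. Of 29 genes for photosystems, the cytochrome complex and Rubisco, 14 were in the upper quartile, with psbZ at 8.04 and psbC at 7.78. The same group held 2 genes in the lower quartile, among them psbT at 5.35, and its median was 6.01.

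**Figure D5:**
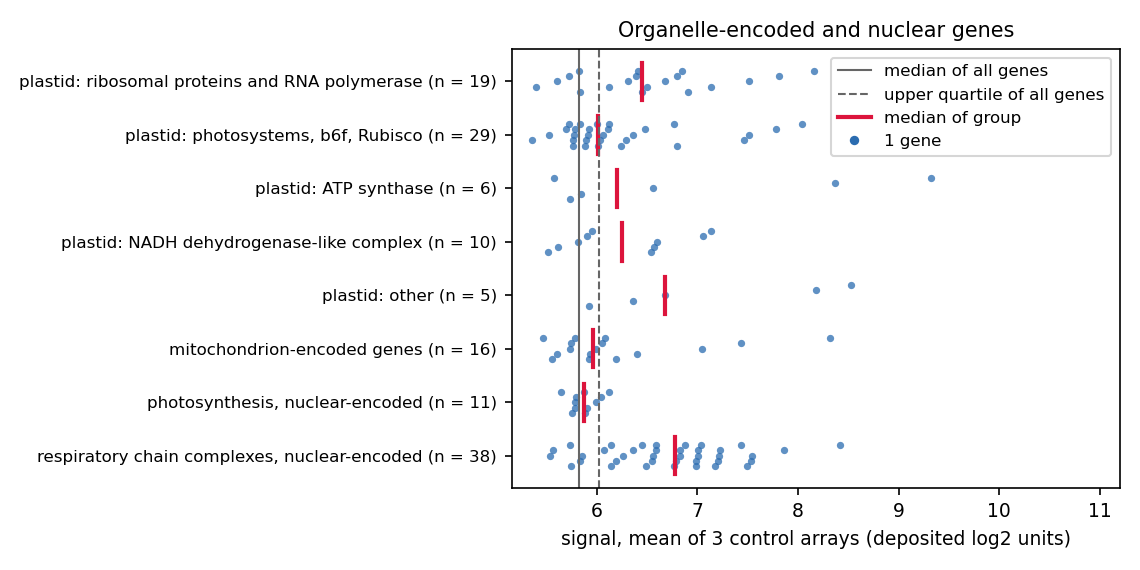
Signals of plastid-encoded, mitochondrion-encoded and related nuclear genes (points, mean of 3 control arrays, deposited log2 units), with group medians in red and the median and upper quartile of all genes as vertical lines. Plastid-encoded ATP synthase genes run from 5.57 to 9.32, while the 11 nuclear photosynthesis genes lie between 5.64 and 6.12.

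The 16 genes of the mitochondrial genome that had a probe of their own, also listed after the values were seen, had a median of 5.96, and the 38 nuclear genes of respiratory chain complexes one of 6.78. Probes paired with several genes were left out here, and the second brightest of those read 11.02. The brightest of the 16 was ccb382, which acts in cytochrome c maturation, at 8.32. The oxidase subunit cox1 read 7.43 and the complex I subunit nad4 read 7.04. The complex I genes nad7, nad4L and nad2 read 5.73, 5.55 and 5.46, all below the highest Bacillus probe. Labelling for arrays often starts from poly(A) tails, which most plant organelle transcripts lack. Whether this bears on the organelle signals, bright or dim, was not tested.

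Genes measured by more than 1 probe show how far brightness belongs to the probe. There were 146 such genes, none of them among the 200. The highest and lowest probe of a gene differed by a median of 0.21 log2 units, against 0.37 for the interquartile range of all genes. In 56.8% of these genes the difference was over 50% of that interquartile range. The widest difference was for AT1G21580, with probes at 6.84 and 5.51, and SDH2-1, a subunit of succinate dehydrogenase, had probes at 6.76 and 5.75. Probes with the plain suffix _at read 197 of the 200 genes, or 98.50%, beside 97.88% of all genes. The other 3 were read by probes with the suffix _x_at, which marks probes that may bind unrelated transcripts.

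The 3 arrays from plants with GSH on their leaves had the same 200 genes as their brightest. All arrays of the series are so close that this follows from the values themselves. The largest difference of a gene of the 200 between the group means was 1480 millionths, beside the median step of 4732 millionths between ranks, and the match is not independent support for the list.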

How the data were processed

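Root RNA was labelled from 100 ng of total RNA and hybridised to 3 control arrays, per the labels' protocols. The authors deposited a table of log2 values, used as deposited. The unit was taken from their range, 5.09 to 12.9. The submitters' processing notes name R 2.7.2; background correction, summary and normalization are not stated. All 6 columns were mapped to samples.

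The 3 control columns were averaged per probe, 64 control probes left out and the highest probe mean kept per gene. Probes were named from the array's platform annotation, which can be old. Genes were counted by gene identifier, since 6 symbols stood for 2 identifiers each. Ranks and classes were computed with pandas 2.3.3. The calculation of the ranking was run on simulated data whose bright genes stood far above the others. Recovering them was near certain, so this says nothing about the order found here. No test was made, since the members were chosen by their signal. Precision is limited by the number of arrays; counting depth does not apply.

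Of 43 classes holding 1078 entries, 27 had measured genes, 324 in all; the other 16 were not analysed here. A further 24 classes were added. Members and lists were chosen with earlier results of these data known. Named genes are the 25 brightest, 5 on each side of rank 200, and up to 4 brightest and 3 dimmest of a class. Also named are all of a class of 6 or fewer, the 5 dimmest class members and the 5 widest ranges among the 200. Other genes named for a role among the 200 were chosen after their values were seen, as was nad7. Alternatives were other averages, probe choices, quantile normalization, left-out arrays, the GSH arrays and other limits.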

Additional observations from a re-analysis of the deposited data

How the results depend on the processing

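The same 200 genes were brightest with the median of the arrays, a mean on the linear scale, quantile normalization, without any 1 of the control arrays, and on the GSH arrays. Arrays this close could give little else, so this says nothing about stability. The mean or the lowest probe of a gene gave the same list as well, which was fixed in advance because none of the 200 has a second probe. Without _s_at and _x_at probes 197 of them remained. Ribosomal protein genes were 42.0% of the brightest 100 and 18.25% of the brightest 400; by construction the former list holds 100 of the 200 genes. Of 420 class counts under these settings, or with quartiles over all probes, 419 stayed within 1.5 times. The exception was nuclear photosynthesis, with 1 gene above the upper quartile of all probes. Settings that changed only the arrays or their average could move few counts, so 419 of 420 is no measure of stability. Deciles in place of quartiles are narrower by construction, and with them 18 of 40 class counts moved beyond 1.5 times. The top decile held 1 histone, 5 proteasome, 6 glycolysis, 5 peroxidase, 1 expansin, 0 nuclear photosynthesis, 1 defensin and 4 mitochondrion-encoded genes. The lowest decile held 1 large-subunit gene and 0 of the stalk, and 0 translation factors. It also held 1 histone, 4 peroxidases, 0 nuclear photosynthesis genes, 1 seed gene, 1 mitochondrion-encoded gene, 0 nuclear respiratory genes and 4 plastid-encoded genes. With the median Bacillus probe as the limit, 89.0% of genes lay above it, in place of 33.0%. Among genes with several probes, 32.2% had probes further apart than the whole interquartile range. The Bacillus limit, the ribosomal share and the alternatives for it were added after seeing the data. No paired analysis was possible because only the control arrays were described and no test was made. Signals under the highest Bacillus probe cannot be told from that of a control transcript, so the order of dim genes is not informative about expression.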

Other observations

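Much of the brightest signal on these arrays came from probes without a single gene name. Among the 200 brightest probes, 101 were unnamed here and 29 were paired with several genes. The brightest unnamed probe read 11.59 and the brightest probe paired with several genes 11.37, both above AT4G27450 at 10.60. In all, 3 unnamed probes and 2 paired with several genes were above that gene. Of the probes at least as bright as the gene at rank 200, 273 were unnamed and 48 were paired with several genes. The roles of these probes were not described.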
